A study of Sus scrofa with 2 samples.

Results

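The genes described here are 10 markers of the subfields of the hippocampus, chosen by name: PROX1, C1QL2, C1QL3 and CALB1 for the dentate gyrus, POU3F1, FIBCD1 and WFS1 for CA1, and NECTIN3, RGS14 and PCP4 for CA3 or CA2. Of these 10 genes, 8 had a row among the 25322 gene IDs of the table, and 7 of the 8 reached a mean FPKM of 1, the level from which 12557 genes were compared. PROX1 had a row but lay below that level, and the IDs paired with WFS1 and PCP4 had no row, so no value is given for either. The study measured RNA from the hippocampus of Rongchang piglets whose genotype the labels give as "wide type", 1 sample labelled iron dextran and 1 labelled control. Iron dextran is iron bound to a polysaccharide, an injectable form of iron used to prevent anaemia in piglets. The labels give no dose, route, age beyond piglet, or number of animals, and each sample label lists 2 names without saying what they stand for. FPKM, the fragments of a gene divided by its transcript length and by the mapped total, is a level per length and was used to compare genes within a sample as well as samples.

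The hippocampus passes signals through a chain of subfields. Granule cells of the dentate gyrus send mossy fibres to the pyramidal cells of CA3, which project to CA1, while CA2 is a small field between them with its own inputs and a restricted synaptic plasticity. The genes that tell these fields apart were mapped mostly in mouse, and several are also active outside the hippocampus: calbindin in interneurons and cerebellar Purkinje cells, PROX1 in interneurons and lymphatic endothelium, and POU3F1 in neocortex and myelinating cells. A change of a marker in whole tissue can reflect fewer cells of that type or less of its RNA per cell, and these cannot be told apart here.

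Between the iron dextran sample and the control sample, C1QL3, CALB1 and POU3F1 had higher values in iron dextran, NECTIN3 had a lower value, and C1QL2, FIBCD1, RGS14 and PROX1 were close in both samples. None of the 7 compared markers differed by 1.5-fold on the log2(FPKM + 1) scale in either direction. On that scale 2.47% of all compared genes were higher in iron dextran by 1.5-fold or more, and 1.47% were lower by as much. Of the 7 markers, 4 lay above 0, among them CALB1, which passed the filter through its iron dextran value, and 3 lay below, where 49.0% of all compared genes lay above 0. The median log2 difference was 0.11 over the 7 markers and −0.0046 over all compared genes. With 1 sample a group there was no spread between replicates, so the differences could not be tested and carry no replicate error.

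**Figure D1:**
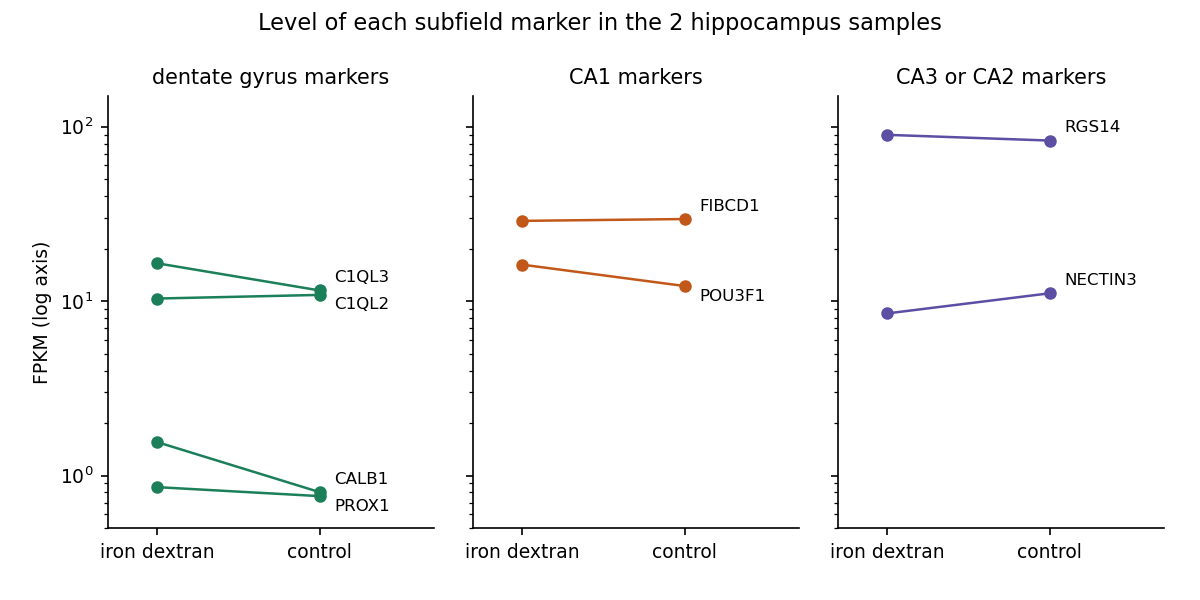
FPKM on a log axis of the 8 subfield markers with a row, in the iron dextran sample (left of each panel) and the control sample (right), 1 point per sample. The lines of C1QL3, CALB1 and POU3F1 are higher at iron dextran, that of NECTIN3 is lower, and RGS14 is the highest marker in both samples.

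The dentate gyrus markers spanned a wide range of levels. C1QL2 and C1QL3 encode secreted C1q-like proteins that, in mouse, granule cells release at mossy fibre synapses onto CA3, where they bind kainate receptors. C1QL3 (ENSSSCG00000011043) had 16.5 FPKM in iron dextran, against 11.5 FPKM in control, a ratio of 1.43 and a log2(FPKM + 1) difference of 0.48. A difference of that size in either direction was reached by 6.07% of all compared genes and by 4.86% of the 4380 genes with a mean FPKM from 5 to 20. Its paralog C1QL2 (ENSSSCG00000015717) had 10.3 FPKM in iron dextran and 10.9 FPKM in control, a log2 difference of −0.06. The pair therefore stood further apart in one sample than in the other: the level of C1QL2 was 0.627 of that of C1QL3 in iron dextran, against 0.943 in control. Such a ratio of 2 genes within a sample does not depend on how the columns are scaled.

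CALB1 and PROX1 were low in both samples. CALB1 (ENSSSCG00000006125), the calcium buffer calbindin, which fills granule cells and many CA1 pyramidal cells, had 1.56 FPKM in iron dextran and 0.802 FPKM in control. The ratio was 1.94, the largest among the markers, but the pseudocount of 1 brings it to a log2 difference of 0.504, under 1.5-fold. Differences that large occurred in 10.6% of the 4163 genes with a mean FPKM from 1 to 5. With pseudocounts of 0.1 and 0.01 the log2 difference of CALB1 was 0.88 and 0.95, which is past 1.5-fold, where 4.44% and 4.77% of all compared genes were higher by that much. PROX1 (ENSSSCG00000015584), the homeobox transcription factor that sets and keeps granule cell identity, had 0.858 FPKM in iron dextran and 0.761 FPKM in control, a ratio of 1.13 and a log2 difference of 0.08. CALB1 and PROX1 were nearly level in control, with PROX1 at 0.949 of CALB1, against 0.551 in iron dextran.

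CALB1 reached a mean FPKM of 1 only through the iron dextran sample, where it was higher, so values over the compared dentate markers are partly set by the filter and support no direction. Over these 3 genes the median log2 difference was 0.48. With PROX1 included the median was 0.28, and over C1QL2 and C1QL3 alone, the dentate markers with a mean FPKM of at least 5, it was 0.21. The median of the 3 is the value of C1QL3, and it falls where CALB1 is left out or PROX1 is added. The summed level of the 4 dentate markers was 29.2 FPKM in iron dextran and 23.9 FPKM in control.

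In CA1, POU3F1 had a higher value in iron dextran and FIBCD1 did not. POU3F1 (ENSSSCG00000003646), a POU-domain transcription factor enriched in CA1 pyramidal cells of mouse, had 16.2 FPKM in iron dextran, against 12.2 FPKM in control, a ratio of 1.33 and a log2 difference of 0.38. A difference of this size in either direction was found in 10.5% of all compared genes. FIBCD1 (ENSSSCG00000005707), a transmembrane receptor of the fibrinogen domain family that binds chitin and other acetylated sugars, had 28.8 FPKM in iron dextran and 29.6 FPKM in control, a log2 difference of −0.03. The level of POU3F1 was 0.561 of that of FIBCD1 in iron dextran, against 0.413 in control. The median over these 2 genes was 0.17, midway between values that differ by more than the median itself. WFS1, which encodes the endoplasmic reticulum membrane protein wolframin, had no row.

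The markers of CA3 or CA2 also parted. NECTIN3 (ENSSSCG00000011933), an adhesion molecule of CA3 pyramidal cells in mouse that pairs with nectin-1 at the contacts beside mossy fibre synapses, had 8.50 FPKM in iron dextran, against 11.1 FPKM in control. The ratio of control to iron dextran was 1.31 and the log2 difference was −0.35, a size reached in either direction by 12.6% of all compared genes. RGS14 (ENSSSCG00000014039), a regulator of G protein signalling that limits plasticity at CA2 synapses in mouse, had 89.8 FPKM in iron dextran and 83.3 FPKM in control, a log2 difference of 0.11. The median over both was −0.12. NECTIN3 stood at 0.0946 of RGS14 in iron dextran, against 0.133 in control. PCP4, a small calmodulin-binding protein of CA2, had no row.

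**Figure D2:**
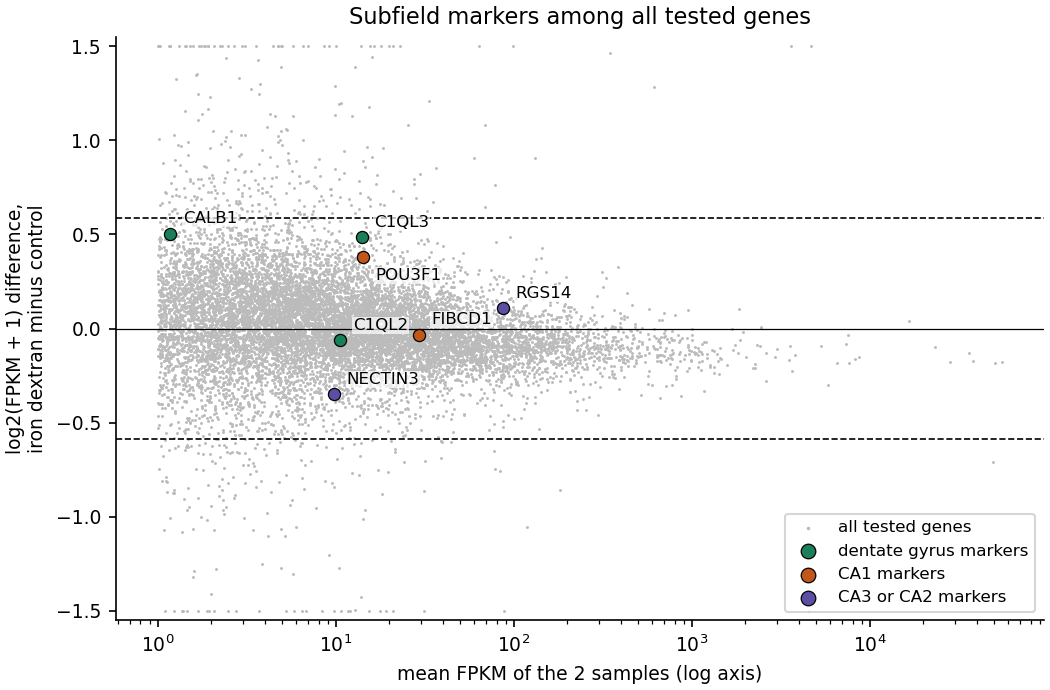
Log2(FPKM + 1) difference, iron dextran minus control, against the mean FPKM of both samples on a log axis, for all 12557 compared genes (grey, values beyond 1.5 drawn at the edge) and the 7 compared markers (coloured by subfield). Dashed lines mark 1.5-fold, and all 7 markers lie between them, with CALB1 (0.504) and C1QL3 (0.48) nearest to the upper line and NECTIN3 (−0.35) lowest.

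The order of the levels was similar in both samples. RGS14 was the highest marker and FIBCD1 the next in both, and CALB1 and PROX1 were the lowest. RGS14 exceeded 95.8% of the 25322 gene IDs in iron dextran and 95.2% in control, and PROX1 exceeded 49.0% in iron dextran and 48.8% in control. Between these ends 2 pairs of neighbours changed places. C1QL3 stood above POU3F1 in iron dextran, with a ratio of 1.02, and below it in control, with a ratio of 0.943. C1QL2 stood above NECTIN3 in iron dextran, with a ratio of 1.22, and just below it in control, with a ratio of 0.978. Without replicates there is no spread against which neighbours in this order could be separated.

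Of the 28 pairs that the 8 markers form, 8 had a ratio that differed at least 1.5-fold between the samples, counted on plain FPKM without a pseudocount. Of the 21 pairs among the 7 compared markers, 7 did so (33.3%), and of the 15 of these without CALB1, 3 did. Among all pairs of the 12495 compared genes above 0 in both samples the share was 16.4%. Pairs that share a gene are not independent, and nothing particular to the markers is read from these shares. Of the 8 pairs, 5 involved CALB1, the marker whose plain ratio differed most. The other 3 were C1QL2 with C1QL3, C1QL3 with NECTIN3 and POU3F1 with NECTIN3. The level of C1QL3 was 1.94 times that of NECTIN3 in iron dextran, against 1.04 times in control. POU3F1 was 1.91 times NECTIN3 in iron dextran and 1.10 times in control. The ratio of C1QL2 to NECTIN3, also a dentate and a CA3 gene, differed less, by 1.24-fold. On the log2(FPKM + 1) scale the median level of the 4 dentate markers relative to that of NECTIN3 and RGS14 was −2.45 in iron dextran and −2.79 in control. The dentate median lay midway between CALB1 and C1QL2 in both samples. It was 2.43 in iron dextran and 2.21 in control, and C1QL2 was not higher in iron dextran, so the higher dentate median there rests on CALB1, a low gene. All 4 dentate markers entered whatever their level, so the filter played no part. The median of NECTIN3 and RGS14 was lower in iron dextran, at 4.876 against 4.996 in control, and this also brought the groups closer there.

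Other markers of the same subfields were taken from lists that do not contain the 10 genes, and of the 15 that were compared 1, ETV1, differed by at least 1.5-fold. Among all compared genes 2.47% were higher and 1.47% lower by as much, and nothing particular to these lists is read from 1 gene of 15. Of 12 further dentate granule cell markers, 10 had a row and 3 were compared, all above 0, with a median log2 difference of 0.17 and none past 1.5-fold. STXBP6, a syntaxin-binding protein, had 13.2 FPKM in iron dextran and 12.9 FPKM in control. BCL11B, a transcription factor of granule cells, had 1.74 FPKM in iron dextran and 1.43 FPKM in control, and IGFBP5, a binding protein of insulin-like growth factors, had 1.86 FPKM in iron dextran and 1.53 FPKM in control. The share above 0 among all compared genes was 59.9% at a mean FPKM from 1 to 5, the class of BCL11B and IGFBP5. It was 53.9% from 5 to 20, the class of STXBP6. The other 7 fell short of the filter. Among them were DSP, the desmosomal protein desmoplakin, with 0.241 FPKM in iron dextran and 0.546 FPKM in control, and RFX3 with 0.852 FPKM in iron dextran and 0.325 FPKM in control, both chosen after their values had been seen.

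Of 8 further CA1 markers, 5 were compared, 3 above 0 and 2 below, with a median of 0.0059. The median was −0.0033 after rescaling by the trimmed mean of M values and 0.12 with the columns scaled to the same total, where all 5 lay above 0. One of them, the ETS-family transcription factor ETV1, was higher by more than 1.5-fold, with 19.2 FPKM in iron dextran, against 11.9 FPKM in control, a log2 difference of 0.65. CCN3, a secreted matricellular protein, had 10.7 FPKM in iron dextran and 11.6 FPKM in control. MAN1A1, a Golgi mannosidase, had 7.76 FPKM in iron dextran and 7.51 FPKM in control. Both were thus nearly level, unlike ETV1.

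Of 12 further CA3 or CA2 markers, 7 were compared, 2 above 0 and 5 below (3 above and 4 below with the columns scaled to the same total), with a median of −0.16 (−0.0459 with the same total) and none past 1.5-fold. NRIP3 had 36.04 FPKM in iron dextran and 43.1 FPKM in control, and CDH24, a cadherin, had 9.32 FPKM in iron dextran and 11.3 FPKM in control, log2 differences of −0.25 for each. AMIGO2, an adhesion protein of CA2, had 5.77 FPKM in iron dextran and 6.78 FPKM in control. PTPN5, the striatal-enriched phosphatase that is also abundant in CA2, had 32.6 FPKM in iron dextran and 36.6 FPKM in control. The ratio of iron dextran to control ran from 0.828 for CDH24 to 0.890 for PTPN5 over these 4 genes. The 2 genes above 0, named after their values had been seen, were CPNE4, with 35.9 FPKM in iron dextran and 32.6 FPKM in control, and COCH, with 9.70 FPKM in iron dextran and 8.92 FPKM in control. The share below 0 among all compared genes was 63.1% at a mean FPKM from 20 to 100, the class of NRIP3, PTPN5 and CPNE4, and 46.1% from 5 to 20, the class of the other 4.

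Immature granule neurons, which the dentate gyrus goes on producing after birth, were followed by 4 compared markers of 6 listed, 3 above 0 and 1 below, with a median of 0.25. IGFBPL1 had 7.75 FPKM in iron dextran and 5.499 FPKM in control, and the transcription factor SOX11 had 5.16 FPKM in iron dextran and 3.78 FPKM in control. NEUROD1, which drives granule cell differentiation, had 6.499 FPKM in iron dextran and 5.85 FPKM in control. Doublecortin, DCX, a microtubule protein of migrating neurons, had 6.20 FPKM in iron dextran and 6.48 FPKM in control. None was past 1.5-fold. At a mean FPKM from 1 to 5, the class of SOX11, 59.9% of all compared genes lay above 0. From 5 to 20, the class of IGFBPL1, NEUROD1 and DCX, 53.9% did, and nothing particular to this list is read from its count.

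**Figure D3:**
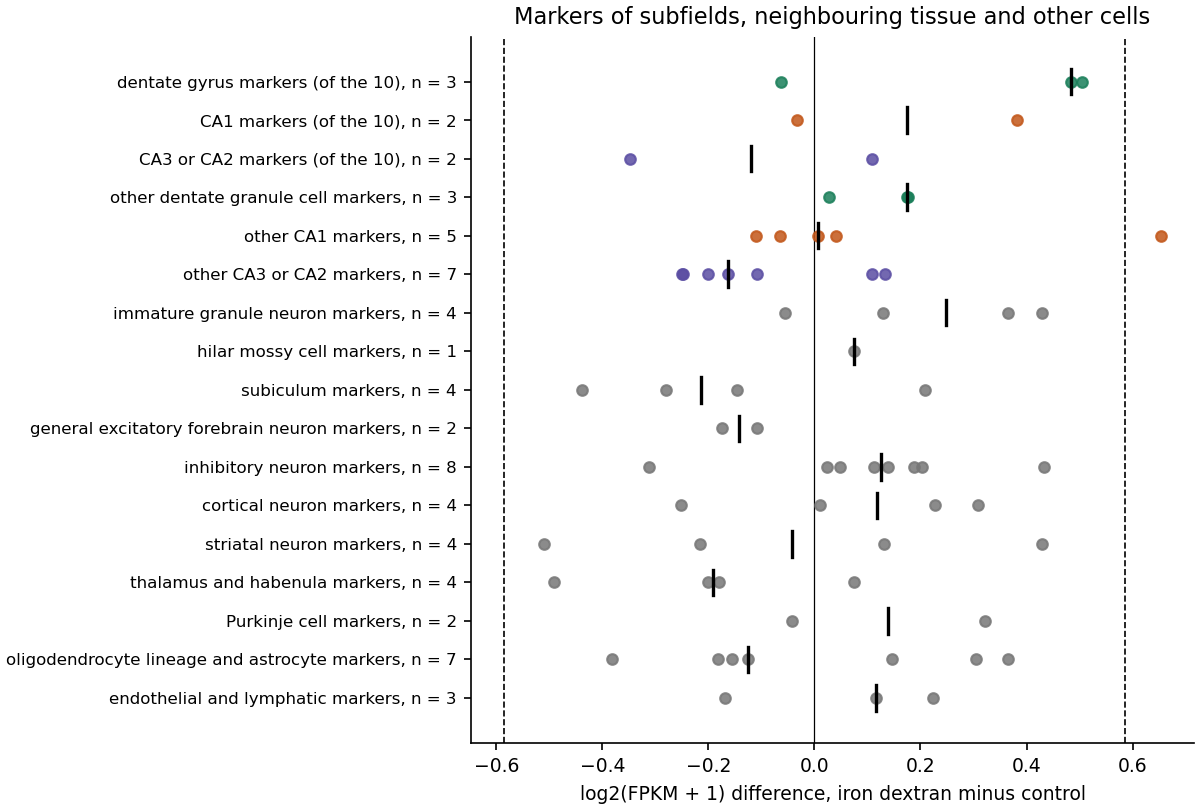
Log2(FPKM + 1) difference, iron dextran minus control, of each compared gene (points) in the marker sets of the subfields, of neighbouring tissue and of other cells, with the median of each set as a black bar and 1.5-fold as dashed lines. Only ETV1, in the further CA1 markers, lies past a dashed line. The further CA3 or CA2 markers have 2 points above 0 and 5 below, or 3 above and 4 below with the columns scaled to the same total. In the class from 20 to 100 FPKM, which holds NRIP3, PTPN5 and CPNE4, 63.1% of all compared genes lie below 0.

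Genes that act with the markers were examined next. C1q-like proteins and the related cerebellins bridge presynaptic neurexins and postsynaptic receptors. Of 12 such relatives and partners, 7 were compared, 4 above 0 and 3 below, with a median of 0.09. NRXN3, a neurexin, had 3.73 FPKM in iron dextran and 2.37 FPKM in control, a log2 difference of 0.49. The kainate receptor subunit GRIK2 had 35.97 FPKM in iron dextran and 29.8 FPKM in control, and its partner subunit GRIK4, which is enriched in CA3, had 10.23 FPKM in iron dextran and 11.1 FPKM in control. ADGRB3, the adhesion receptor that binds C1q-like proteins, had 21.5 FPKM in iron dextran and 19.0 FPKM in control. CBLN4 had 9.94 FPKM in iron dextran and 12.3 FPKM in control, and CBLN2 had 6.30 FPKM in iron dextran and 5.85 FPKM in control. C1QL4, below the filter, had 1.13 FPKM in iron dextran and 0.490 FPKM in control.

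For NECTIN3, 3 of 7 adhesion genes were compared and none was past 1.5-fold. AFDN, the afadin scaffold that ties nectins to actin, had 14.0 FPKM in iron dextran and 15.6 FPKM in control. The catenin CTNNA2 had 53.8 FPKM in iron dextran and 51.6 FPKM in control, and the catenin CTNNB1 had 166 FPKM in iron dextran and 152 FPKM in control. NECTIN1, the partner of nectin-3 across the contact, lay below the filter, with 0.752 FPKM in iron dextran and 0.484 FPKM in control. Afadin thus lay below 0, as NECTIN3 did, and both catenins lay above it.

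For RGS14, 6 of 9 relatives and partners were compared, 1 above 0 and 5 below, with log2 differences from −0.17 to 0.09 and a median of −0.09 that turned to 0.03 with the columns scaled to the same total. RGS12, of the same subfamily, had 10.5 FPKM in iron dextran and 11.5 FPKM in control. Of the inhibitory G protein subunits that RGS14 binds, GNAI1 had 59.5 FPKM in iron dextran and 55.97 FPKM in control, and GNAI3 had 21.6 FPKM in iron dextran and 22.0 FPKM in control. At a mean FPKM from 20 to 100, the class of both, 63.1% of all compared genes lay below 0.

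Of the other EF-hand relatives of calbindin, 2 of 4 were compared, CALB2 above 0 and the interneuron protein PVALB below it, with 84.4 FPKM in iron dextran and 105 FPKM in control. For POU3F1, the related factor POU3F3 had 27.5 FPKM in iron dextran and 24.1 FPKM in control. Of 9 genes on the list for wolframin, which covers stress of the endoplasmic reticulum, 6 were compared, 4 above 0 and 2 below, with a median of 0.12. ATF6, a sensor of endoplasmic reticulum stress, had 2.52 FPKM in iron dextran and 1.73 FPKM in control, and HSPA5, a chaperone of that compartment, had 197 FPKM in iron dextran and 202 FPKM in control. None of these stands in for WFS1 itself.

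Several markers are shared with other cells, whose own markers were summed in each sample. Of 8 compared inhibitory neuron markers, which bear on CALB1 and PROX1, 7 were above 0 and 1 below, with a median of 0.13 and a summed level of 271 FPKM in iron dextran and 269 FPKM in control. GAD1, the main enzyme of GABA synthesis, had 99.2 FPKM in iron dextran and 86.1 FPKM in control, and DLX1, a transcription factor of interneurons, had 4.75 FPKM in iron dextran and 3.26 FPKM in control. PVALB, the 1 below 0, had 84.4 FPKM in iron dextran and 105 FPKM in control. Among all compared genes 49.0% lay above 0. Purkinje cell markers, which also bear on CALB1, summed to 7.10 FPKM in iron dextran and 6.60 FPKM in control, with 1 of 2 compared above 0 and SKOR2 listed at 0 in both samples. Lymphatic and other endothelial markers summed to 27.5 FPKM in both, with 2 of 3 compared above 0. The part of interneurons and these other cells in the values of CALB1 and PROX1 was not tested.

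Neocortical and glial markers bear on POU3F1. The 6 cortical genes with a row summed to 73.8 FPKM in iron dextran and 64.5 FPKM in control, and 3 of 4 compared were above 0. FEZF2 had 25.1 FPKM in iron dextran and 21.3 FPKM in control, and CCN2 had 32.7 FPKM in iron dextran and 26.2 FPKM in control. CUX2, the 1 below 0, had 4.92 FPKM in iron dextran and 6.05 FPKM in control. The 7 oligodendrocyte lineage and astrocyte markers summed to 7696 FPKM in iron dextran and 8681 FPKM in control, with 3 above 0 and 4 below. The 4 subiculum markers summed to 111 FPKM in iron dextran and 136 FPKM in control, and 3 of them were below 0, with NTS, the neuropeptide neurotensin, at 93.2 FPKM in iron dextran and 113 FPKM in control. Markers of thalamus and habenula summed to 45.0 FPKM in iron dextran and 49.3 FPKM in control, with 1 of 4 above 0, and striatal markers summed to 211 FPKM in iron dextran and 173 FPKM in control, with 2 of 4 above 0. The higher striatal sum came from PENK, an opioid peptide precursor that interneurons also make, with 166 FPKM in iron dextran and 123 FPKM in control, while PPP1R1B, a phosphatase inhibitor of striatal neurons, had 27.8 FPKM in iron dextran and 32.5 FPKM in control. For comparison, 49.0% of all compared genes lay above 0. At a mean FPKM of 100 or more, the class of NTS and PENK, 81.7% lay below 0. Nothing particular to these lists is read from their counts. The part of these cells in the values of the subfield markers was not tested.

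As a check of the label, neurons of the forebrain were present in both samples: SLC17A7, the vesicular glutamate transporter of hippocampal and cortical neurons, had 611 FPKM in iron dextran and 658 FPKM in control, and the cortical and hippocampal transcription factor TBR1 had 15.5 FPKM in iron dextran and 17.6 FPKM in control. Both compared genes of this list lay below 0, SLC17A7 above it with the same total. ZBTB20, a transcription factor needed for hippocampal identity, was near 0, with 0.0820 FPKM in iron dextran and 0.150 FPKM in control. The low PROX1 and ZBTB20 values are levels of the gene models in the deposited table, whose annotation the sources used here do not name. The single hilar mossy cell marker that was compared, CALB2, the calcium buffer calretinin, which interneurons also make, had 25.1 FPKM in iron dextran and 23.8 FPKM in control.

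**Figure D4:**
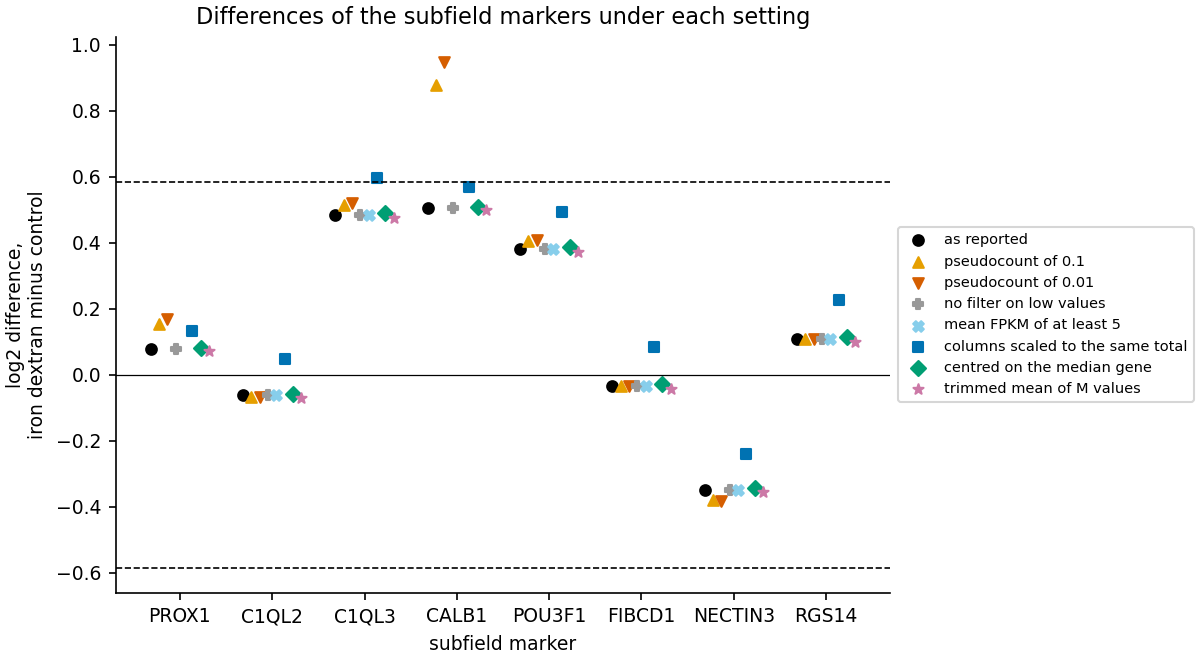
Log2 difference, iron dextran minus control, of the 8 markers with a row under each setting of pseudocount, filter and column scaling (1 symbol per setting), with 1.5-fold as dashed lines. CALB1 passes the upper line with the smaller pseudocounts (0.88 and 0.95), C1QL3 passes it with the columns scaled to the same total (0.60), and NECTIN3 stays below 0 in all 8 settings.

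The scaling of the columns set the sign of the markers nearest to 0, as the plot of settings shows. FPKM summed to 850165 in iron dextran and 924070 in control. Scaling both columns to the same total shifted the median of all compared genes by 0.11 on the log2 scale, and with it C1QL2 (0.05) and FIBCD1 (0.08) turned above 0. Under this scaling C1QL3 was the 1 marker past 1.5-fold, with a log2 difference of 0.60, where 3.52% of all compared genes were higher by that much. It also moved the split of all compared genes past 1.5-fold to 442 higher and 130 lower, against 310 higher and 185 lower with FPKM as deposited. With the differences centred on the median gene, C1QL3 (0.49), CALB1 (0.51) and POU3F1 (0.39) lay above it and NECTIN3 (−0.34) below it.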

How the data were processed

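The authors deposited FPKM values in a single table, with Ensembl pig gene IDs as rows and the samples as columns A and B; A and B are the letters in the sample titles. Per the submitters' processing notes, reads were processed with cutadapt 1.2.1 and TopHat, and the builds named are Sscrofa10.2 and susScr3. The sources used here name neither the program behind the FPKM values nor the annotation or the use of strand. A table of Ensembl IDs and symbols matched 11804 IDs. No annotation of that build was used, so no coordinates are given.

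The absolute depth is unknown, so counting error could not be computed. Among 690 genes above 0 in both samples and under 0.1 FPKM in control, 52.5% of the ratios lay within 0.05 log2 units of 1, 2 or 0.5 times a common value; read as whole fragments, iron dextran had 1.05 times the depth of control.

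Differences are of log2(FPKM + 1), iron dextran minus control, for genes whose FPKM averaged at least 1; the pseudocount understates the change of low genes. A rule of 1.5-fold was used, and no test was possible with 1 sample a group. The calculations used Python 3.11.15, pandas 2.3.3 and numpy 2.4.6. The 10 markers and 22 other lists were chosen with earlier results of these data known. All 10 markers are named whatever their values, as are compared relatives and partners, and of other lists up to 4 genes with the largest absolute difference; genes below the filter were named after their values had been seen. Some genes that this rule takes, and the list of PCP4 relatives, are not reported here. Alternatives were pseudocounts of 0.1 and 0.01, no filter or a mean FPKM of at least 5, a fold of 2, and columns scaled to the same total, centred on the median gene or adjusted by the trimmed mean of M values (TMM).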

Additional observations from a re-analysis of the deposited data

How the results depend on the processing

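No paired analysis was possible because each group is 1 sample. A median counted as moved when it changed by more than 0.1 log2 units, a count when it changed by more than 1.5 times. With the columns scaled to the same total, C1QL2 (0.0466) and FIBCD1 (0.0825) turned above 0, the CA1 median was 0.288, the CA3 or CA2 median was −0.0063, and 1 marker was at least 1.5-fold higher. With pseudocounts of 0.1 and 0.01, 1 marker was at least 1.5-fold higher each time, while all compared genes gave 558 higher and 332 lower, and 599 higher and 357 lower, against 310 and 185 with a pseudocount of 1. The dentate median was 0.280 without a filter and 0.21 with the filter raised to 5 FPKM. All compared genes gave 434 higher and 282 lower without a filter, 113 higher and 71 lower with the filter at 5 FPKM, and 93 higher and 53 lower by 2-fold. With a pseudocount of 0.01 the dentate markers lay further from the CA3 or CA2 markers, at −2.78 in iron dextran and −3.36 in control. C1QL3, CALB1, POU3F1, RGS14 and PROX1 stayed above 0, and NECTIN3 below it, under each alternative that gave a value. CALB1 and PROX1 had the lowest levels, and with the depth unknown their counting error could not be computed.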

Other observations

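Some genes of the lists were listed at 0. TDO2, a tryptophan-degrading enzyme and granule cell marker, FOXP2, SKOR2, NECTIN4 and CDH2 were at 0 in both samples. CDH2 encodes N-cadherin, which neural cells use widely, so a listed 0 is not read as absence of the transcript. S100G, a vitamin D-dependent calcium-binding protein, was listed at 0 in iron dextran and had 0.369 FPKM in control. IYD was listed at 0 in iron dextran and had 0.119 FPKM in control, and PROX2, the relative of PROX1, had 0.0387 FPKM in iron dextran and was listed at 0 in control.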
